A study of Mus musculus with 4 samples.

Results

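Glucose uptake and glycolysis in the liver were followed through 8 genes: Slc2a2, Gckr, Pfkl, Pfkfb1, Pfkfb3, Tpi1, Pklr and Ldha. They were taken by gene symbol from a table of 54532 genes, where all 8 were found, and all 8 passed the filter on low counts that 13403 genes passed. The data are messenger RNA counts of livers from C57BL/6 mice, an inbred strain, with 2 libraries in each of 2 groups. The group called HFD carries only that treatment label, letters that in mouse liver work usually mean a high-fat diet. The group called I3A below is labelled HFD+I3A, so both groups share HFD, and the agent is known here only by its abbreviation. No source used here gives age, sex, dose or duration, and no liver without HFD was analysed here. The series title frames the study around mitochondrial respiration in a fatty liver model; the comparison of glucose genes asks how their transcripts stand in I3A against HFD livers.

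Hepatocytes take up glucose through a high-capacity transporter and trap it by phosphorylation, a step under the control of a regulatory protein. The committed step of glycolysis is phosphofructokinase, which is strongly activated by fructose 2,6-bisphosphate, a signal molecule that is made and destroyed by the bifunctional enzymes of the Pfkfb family. The last steps make pyruvate and, through lactate dehydrogenase, lactate. In the liver many of these enzymes work beside opposing enzymes of gluconeogenesis, and transcription of Pklr is known to respond to insulin and to glucose.

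The 4 libraries held between 15005668 and 18255623 counts, and 1 count was worth 0.0581 to 0.0651 CPM, the count relative to a library total scaled by the trimmed mean of M-values (TMM). Hepatocyte markers, 7 of 7 detected in every library, summed to 84322 to 92599 CPM. The library HFD 335 also held transcripts of other tissues: 12 skeletal muscle markers summed to 1059 CPM there and to 0.986 to 1.66 CPM in the other 3 libraries, 10 exocrine pancreas markers to 176 against 12.1 to 25.5 CPM, and 5 adipocyte markers to 62.5 against 0.0548 to 0.733 CPM. Acta1, the skeletal muscle actin, had 6221 counts in HFD 335 and 0 in each other library. Without this library the log2 fold changes of Slc2a2, Tpi1, Ldha and Pfkfb1, given with all 4 libraries below, were -0.17, 0.65, 0.62 and 0.66, and those of the other 4 genes stand beside their values.

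The 8 genes together took 0.228% to 0.233% of all counts in HFD livers and 0.279% to 0.290% in I3A livers. This sum mostly follows Ldha, which held 19766 of the 34938 counts in HFD 334 and 36998 of the 52886 in I3A 305. Of the 8 log2 fold changes, 3 were positive and 5 negative. Ldha and Tpi1 were higher in I3A livers (1.52-fold and 1.57-fold), Pfkfb1 was 1.39-fold higher, and Pfkfb3 was 2.87-fold lower. Slc2a2, Gckr, Pfkl and Pklr overlapped between the groups. In edgeR's quasi-likelihood test 0 of the 8 passed an adjusted p of 0.05, as did 0% of all tested genes. DESeq2 called Pfkfb3, Tpi1 and Ldha, with 3.34% of genes called over all genes given an adjusted p, and limma-voom called 0 of the 8 and 0% of all genes. At an unadjusted edgeR p under 0.05 stood 4 of the 8, against 12.9% of all tested genes; 3 were higher and 1 lower, against 6.66% and 6.24%. The groups did not overlap in 4 of the 8 (3 higher and 1 lower in I3A livers), close to the 45.5% over all tested genes (23.1% higher and 22.5% lower). These genes were chosen with earlier results of the same libraries known, so the counts describe them and are no independent support.

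Sequences around the transcription starts are shown for Pklr and for the 3 genes that DESeq2 called, since these carry the differences described below or a site known to respond to glucose. They come from RefSeq (build GRCm38.p6, the same major build as the counts), 250 bases before to 50 after the start, 5′ to 3′ on the strand of the gene. All 8 genes matched, with 14 starts in all. The searched motifs were the E-box CACGTG, the hypoxia response cores ACGTG and GCGTG, and the carbohydrate response element, searched as CACGNG and CNCGTG with any 5 bases between them. Both strands were searched, ACGTG lies within the E-box, and capitals mark these 4 motifs. The liver start of Pklr is the downstream one of its 2 starts (chr3:89136373-89136672, plus strand); the upstream start is the one used in red cells.
Pklr, downstream start: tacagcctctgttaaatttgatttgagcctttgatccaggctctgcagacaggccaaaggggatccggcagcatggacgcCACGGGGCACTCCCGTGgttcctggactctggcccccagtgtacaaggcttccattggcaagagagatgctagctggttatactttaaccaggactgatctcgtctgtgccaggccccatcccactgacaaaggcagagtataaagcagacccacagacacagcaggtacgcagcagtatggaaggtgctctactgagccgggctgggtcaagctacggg
Ldha, first start: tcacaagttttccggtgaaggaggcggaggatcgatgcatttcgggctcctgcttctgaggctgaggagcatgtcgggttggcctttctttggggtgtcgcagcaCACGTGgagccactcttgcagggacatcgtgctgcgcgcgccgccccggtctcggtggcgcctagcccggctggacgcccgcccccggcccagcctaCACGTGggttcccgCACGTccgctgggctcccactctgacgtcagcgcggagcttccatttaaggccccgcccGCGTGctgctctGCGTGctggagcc
Pfkfb3, first start: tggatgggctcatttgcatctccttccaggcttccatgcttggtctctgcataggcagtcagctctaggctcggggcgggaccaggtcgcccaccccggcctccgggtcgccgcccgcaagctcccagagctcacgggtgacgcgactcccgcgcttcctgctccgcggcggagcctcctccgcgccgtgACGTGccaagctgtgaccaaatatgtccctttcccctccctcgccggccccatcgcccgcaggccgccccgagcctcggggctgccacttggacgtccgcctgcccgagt
Pfkfb3, second start: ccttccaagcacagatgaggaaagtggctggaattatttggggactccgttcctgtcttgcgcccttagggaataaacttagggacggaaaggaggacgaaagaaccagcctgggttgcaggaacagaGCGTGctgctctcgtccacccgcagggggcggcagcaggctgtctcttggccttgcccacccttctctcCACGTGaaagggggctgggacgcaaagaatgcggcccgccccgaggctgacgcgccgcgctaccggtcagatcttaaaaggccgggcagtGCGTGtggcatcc
Tpi1: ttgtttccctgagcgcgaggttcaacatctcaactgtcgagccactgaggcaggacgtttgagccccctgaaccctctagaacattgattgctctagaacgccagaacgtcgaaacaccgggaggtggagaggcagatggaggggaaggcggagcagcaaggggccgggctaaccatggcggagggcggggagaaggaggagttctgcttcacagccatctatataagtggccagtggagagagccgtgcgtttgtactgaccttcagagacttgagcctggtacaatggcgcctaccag
The Ldha window is chr7:46845554-46845853 (plus strand), the Pfkfb3 windows are chr2:11553880-11554179 and chr2:11502041-11502340 (minus strand) and the Tpi1 window is chr6:124814109-124814408 (minus strand).

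The Pklr window held the carbohydrate response element from 170 to 154 bases before the start, a motif found in 15 of 32851 promoter windows of the same length (0.0457%). It is the site through which the glucose-responsive factor encoded by Mlxipl is known to act on the liver enzyme. The first Ldha window held the E-box at 145 to 140 and again at 48 to 43 bases before the start, with a further ACGTG on the reverse strand at 34 to 30 bases before it. The second Pfkfb3 window held 1 E-box, at 53 to 48 bases before the start, and the first held ACGTG at 60 to 56 bases before the start. An E-box occurs in 7.15% of all windows, ACGTG in 19.6% and GCGTG in 32.4%. GCGTG was found in windows of Gckr, Pfkl and Pfkfb1 as well as of Pfkfb3 and Ldha. None of these 4 motifs was found in the Tpi1 window. The window of Slc2a2 held none of the 8 motifs searched, which also covered HNF1 (GTTAAT and ATTAAC with any 1 base between them), C/EBP (TTGCNNAA), TATAAA and AGAACA, a core of glucocorticoid receptor sites. The last occurs in 19.0% of all windows and was found in the windows of Gckr (from 242 to 237 bases before the start and from 1 to 6 bases after it) and Tpi1 (from 172 to 167 bases before it). HNF1, searched only in this form of 13 bases, occurs in 3 of 32851 windows (0.00913%) and was found in none of the 14. A search this strict passes over looser sites, so it cannot say that the windows lack them. C/EBP occurs in 10.8% and was found in the window of Gckr and in a window of Pfkfb1. TATAAA occurs in 13.6% and was found in a window of Pfkfb1 and in the printed Pklr window, from 31 to 26 bases before the start. These matches describe letters in a window. Gene counts do not say which start was used.

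Glucose entry into the hepatocyte was measured through Slc2a2, which encodes GLUT2, the main glucose transporter of the hepatocyte (chromosome 3, 28697903 to 28731359, plus strand). Slc2a2 measured 335 CPM in HFD 334, 336 CPM in HFD 335, 362 CPM in I3A 303 and 235 CPM in I3A 305. The HFD libraries lay close together, and the I3A libraries lay on either side of them. On the log2 scale the difference was -0.17 ± 0.21 (SE; 95% interval -0.69 to 0.35; edgeR adjusted p = 0.771), an interval that spans a 0.620-fold to a 1.28-fold level, and it was 0.11 without I3A 305. Of the other hexose transporters, 5 of 10 could be tested, with 0 called. At an unadjusted p under 0.05 stood 2 higher and 1 lower, beside 6.66% and 6.24% of all tested genes. Slc2a5, a fructose transporter, was 0.54 ± 0.19 higher on the log2 scale (SE; edgeR adjusted p = 0.349), and Slc2a9, a urate and hexose transporter, 0.39 ± 0.15 higher (edgeR adjusted p = 0.368). The lower gene was Slc2a3, the transporter of neurons and leukocytes, named after its values were seen; its counts were 10 in HFD 334, 29 in HFD 335, 5 in I3A 303 and 0 in I3A 305. Slc2a1, the widely expressed transporter, measured 8.85 and 13.0 CPM in HFD and 12.5 and 11.2 CPM in I3A livers, so its groups overlapped.

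**Figure D1:**
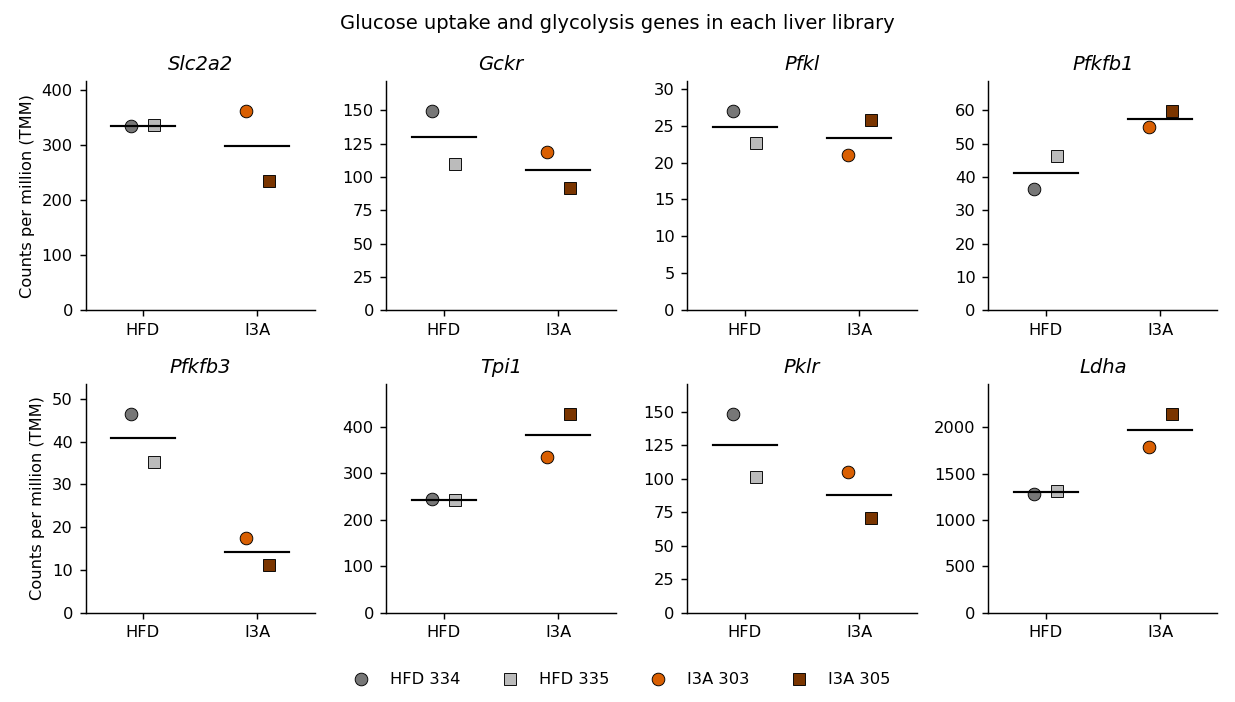
TMM-scaled CPM of the 8 genes in each library (points; circles and squares tell the 2 libraries of a group apart) with the group mean (line); each axis starts at 0. Pfkfb3 lay at 35.3 and 46.5 CPM in HFD and 11.2 and 17.4 CPM in I3A livers, and Slc2a2, Gckr, Pfkl and Pklr overlapped between the groups.

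The trapping step is guarded by Gckr, a regulatory protein that inhibits phosphorylation of glucose when fructose 6-phosphate is high (chromosome 5, 31297443 to 31327314, plus strand). Gckr measured 150 CPM in HFD 334, 110 CPM in HFD 335, 119 CPM in I3A 303 and 91.8 CPM in I3A 305. The lower HFD library lay below the higher I3A library. Its log2 fold change of -0.30 ± 0.19 (SE; edgeR adjusted p = 0.546) became -0.049 without HFD 334 and -0.51 without HFD 335.

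Among the hexose kinases Khk, the fructokinase of the liver, was lower at 214 and 170 CPM in I3A against 333 and 263 CPM in HFD livers (log2 fold change -0.64 ± 0.17, SE; edgeR adjusted p = 0.279; DESeq2 adjusted p = 0.0244). Galk1, the galactokinase, was 0.45 ± 0.13 higher on the log2 scale (edgeR adjusted p = 0.304) and Hk1, a hexokinase of most other tissues, was -1.57 ± 0.49 (edgeR adjusted p = 0.326) at levels of 1.10 to 5.16 CPM, with -0.89 without HFD 335. Of the 7 hexose kinases tested and reported here 0 were called by edgeR. At an unadjusted p under 0.05 stood 1 higher and 2 lower, beside 6.66% and 6.24% of all tested genes.

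Of the enzymes around fructose 6-phosphate, Pfkl, the liver subunit of phosphofructokinase (chromosome 10, 77986947 to 78010083, minus strand), did not separate the groups. Pfkl measured 27.0 and 22.7 CPM in HFD and 21.0 and 25.7 CPM in I3A livers, so the values interleaved. The fitted difference was -0.086 ± 0.16 on the log2 scale (SE; 95% interval -0.48 to 0.31; edgeR adjusted p = 0.850) and was positive without HFD 334 (0.057) and without I3A 303 (0.068), and -0.21 without HFD 335. The subunits Pfkm of muscle and Pfkp of platelets had log2 fold changes of -0.80 ± 0.43 and -0.65 ± 0.34 (SE), which were 0.013 and -0.33 without HFD 335. Exons of Pfkp share 748 bases with Pitrm1 on the opposite strand, a gene with 865% as many counts, so its level is uncertain, and Pfkm stood at 23.8 CPM in HFD 335, the library with muscle markers, against 8.83 to 10.4 CPM in the other 3.

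Pfkfb3 showed the largest difference among the 8 genes. It encodes the inducible bifunctional enzyme with a high ratio of kinase to phosphatase activity, which raises fructose 2,6-bisphosphate (chromosome 2, 11471433 to 11554077, minus strand). Pfkfb3 had 715 counts in HFD 334, 582 in HFD 335, 271 in I3A 303 and 192 in I3A 305, or 46.5, 35.3, 17.4 and 11.2 CPM. Both I3A livers lay below both HFD livers, and the gap between the groups exceeded the gap within either. The log2 fold change was -1.52 ± 0.25 (SE; 95% interval -2.15 to -0.89; edgeR adjusted p = 0.169; DESeq2 adjusted p = 1.2e-05; limma-voom adjusted p = 0.172). Leaving out single libraries gave values from -1.86 to -1.23 with edgeR adjusted p from 0.0595 to 0.541, and the highest p was that without I3A 305.

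Endothelial cells also express Pfkfb3. The 5 sinusoidal endothelium markers, all detected in every library, summed to 118 and 183 CPM in HFD and 108 and 43.0 CPM in I3A livers. Clec4g, Kdr and Pecam1 were lower in both I3A livers. Stab2 (29.6 and 39.7 against 34.2 and 22.7 CPM) and Lyve1 (4.88 and 17.1 against 7.27 and 2.44 CPM) overlapped between the groups. The part of endothelial cells in the difference of Pfkfb3 was not tested. In whole liver fewer cells of a type cannot be told apart from less RNA per cell. Markers of stellate cells summed to 139 CPM in HFD 334, 387 CPM in HFD 335, 170 CPM in I3A 303 and 49.5 CPM in I3A 305, so the groups overlapped. Des, in this list but also a muscle gene, measured 105 CPM in HFD 335 and 2.27 to 4.03 CPM elsewhere. Those of Kupffer cells and macrophages summed to 107 to 114 CPM in HFD and 123 to 140 CPM in I3A livers. Without HFD 335, the library with muscle markers, the log2 fold change of Pfkfb3 was -1.71.

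Pfkfb1, the liver form of the bifunctional enzyme, whose phosphorylation under glucagon favours its phosphatase activity, differed in the other direction (chromosome X, 150588229 to 150643878, plus strand). Pfkfb1 measured 36.2 CPM in HFD 334, 46.3 CPM in HFD 335, 55.0 CPM in I3A 303 and 59.8 CPM in I3A 305. The groups did not overlap, but the gap within the HFD pair exceeded the one between the nearest libraries of the 2 groups. This was a log2 fold change of 0.48 ± 0.14 (SE; 95% interval 0.11 to 0.84; edgeR adjusted p = 0.316; DESeq2 adjusted p = 0.233). Exons of Pfkfb1 share 123 bases with Apex2 on the opposite strand, a gene with 22.9% as many counts, and the library kit is not stated to mark strand. Pfkfb2, another family member, was also higher at 21.6 and 22.9 CPM in I3A against 15.7 and 14.6 CPM in HFD livers (log2 fold change 0.56 ± 0.13, SE; edgeR adjusted p = 0.244), though 154 of its exon bases are shared with Yod1 on the opposite strand, whose counts reach 81.8% of its own. Pfkfb4 and Tigar, a phosphatase of the same substrate, overlapped between the groups.

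Scaled for gene length as CPM per kilobase (RPKM), the ratio of Pfkfb3 to Pfkfb1 was 0.682 in HFD 334, 0.405 in HFD 335, 0.168 in I3A 303 and 0.0990 in I3A 305. It was thus lower in both I3A livers, by 4.07-fold on average (exact 2-sided permutation p = 0.333, the smallest possible here; 0.500 adjusted over the 6 ratios computed). Fbp1, the fructose bisphosphatase of gluconeogenesis that opposes Pfkl, was higher in I3A livers, at 1249 and 1427 CPM against 981 and 964 CPM (log2 fold change 0.46 ± 0.12, SE; edgeR adjusted p = 0.275; DESeq2 adjusted p = 0.0234). The RPKM ratio of Fbp1 to Pfkl was 142 and 167 in HFD and 233 and 217 in I3A livers, a 1.46-fold higher ratio (exact 2-sided permutation p = 0.333; adjusted 0.500).

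**Figure D2:**
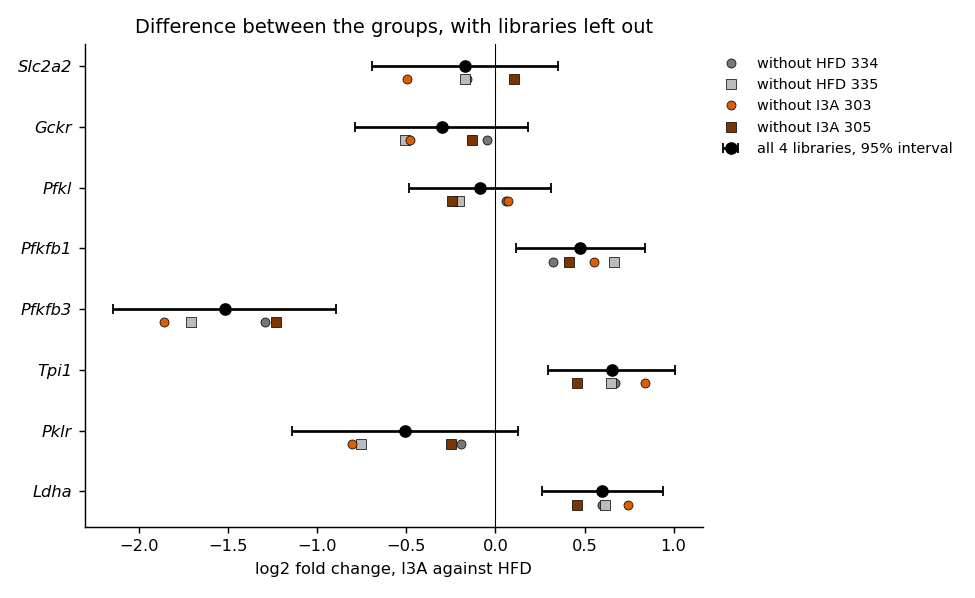
Log2 fold change of I3A against HFD for each of the 8 genes (black point with its 95% interval) and the values with 1 library left out (smaller symbols below). Pfkfb3 stayed between -1.86 and -1.23, whereas Slc2a2 and Pfkl changed sign.

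Tpi1 encodes triose phosphate isomerase, which interconverts the 2 trioses of glycolysis (chromosome 6, 124810586 to 124814296, minus strand). Tpi1 measured 244 CPM in HFD 334, 242 CPM in HFD 335, 335 CPM in I3A 303 and 429 CPM in I3A 305. The HFD libraries nearly coincided, and both I3A libraries lay above them. The difference was 0.65 ± 0.14 on the log2 scale (SE; 95% interval 0.30 to 1.01; edgeR adjusted p = 0.236; DESeq2 adjusted p = 0.00579), from 0.46 without I3A 305 to 0.84 without I3A 303. A single related gene, Tpi-rs11, matched its transcript over at least 200 bases at 95% identity or more, with 1.29% as many counts.

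Of the other steps between glucose 6-phosphate and phosphoenolpyruvate, Pgk1, the phosphoglycerate kinase, had a log2 fold change of 0.27 ± 0.11 (SE). Pgam1 was at -0.058 ± 0.18, Eno1 at -0.024 ± 0.11 and Gpi1, the isomerase before phosphofructokinase, at -0.21 ± 0.089 (SE). Gapdh stood at only 4.71 to 12.7 CPM, with 78 other annotated genes matching its transcript at 95% identity or more and holding 383% as many counts, so its level is uncertain. Aldoc, the aldolase of brain, had 11 and 67 counts in the HFD and 132 and 145 counts in the I3A livers. Its log2 fold change was 1.81 ± 0.68 (SE, edgeR adjusted p = 0.366). Without HFD 335 it was 3.55, with HFD 334, at 11 counts, as the only HFD library. Bpgm, the bisphosphoglycerate mutase known from red cells, was 0.56 ± 0.21 higher on the log2 scale (edgeR adjusted p = 0.362). The 5 erythroid markers summed to 192 and 324 CPM in HFD and 162 and 151 CPM in I3A livers. Of these, Alas2 and Hba-a1 were lower in both I3A livers, whereas Hbb-bs, Hbb-bt and Hba-a2 overlapped between the groups. The part of red cells in the level of Bpgm was not tested. Of the 12 glycolytic enzymes of this list tested and reported here 0 were called by edgeR.

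**Figure D3:**
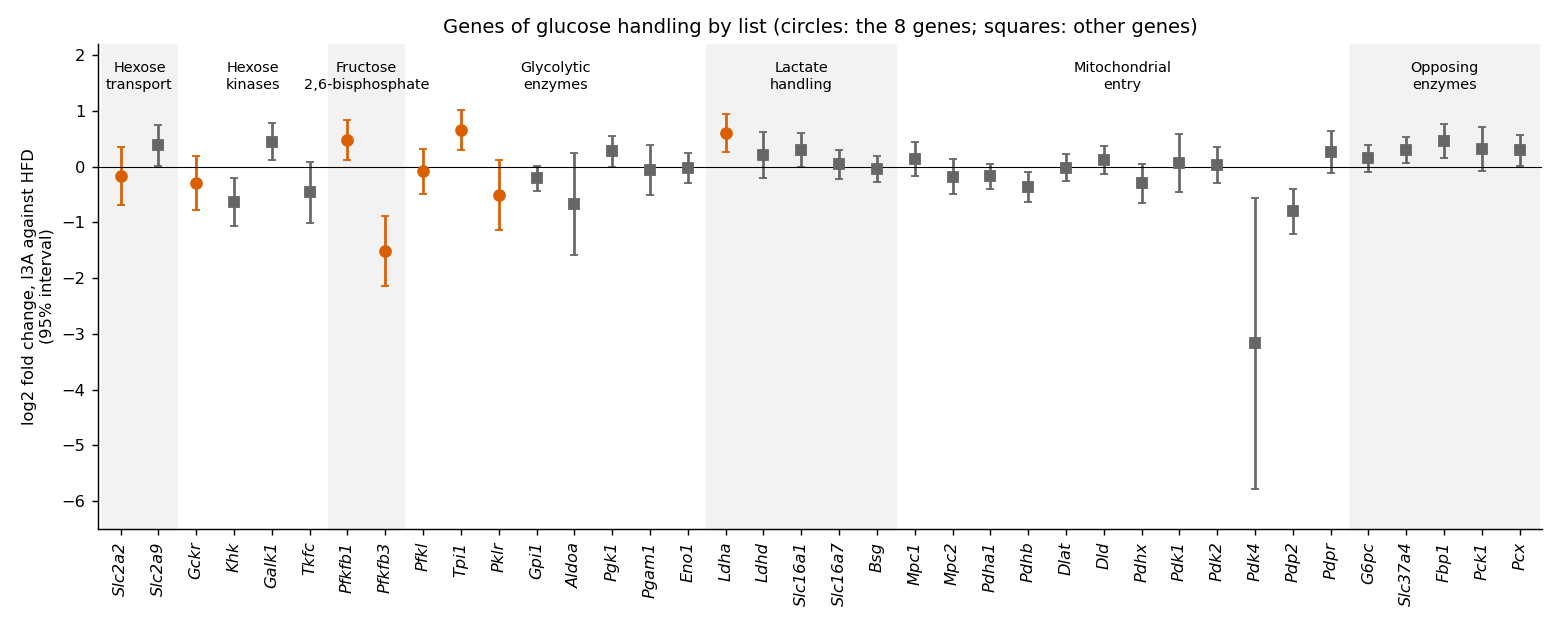
Log2 fold change of I3A against HFD with 95% intervals, grouped by pathway list, for the 8 genes (circles) and every other enzyme or carrier of these lists tested and reported here that averaged 20 CPM or more (squares), with shading by list. Pdk4, at -3.17, had the widest interval, and Pfkfb3 stood at -1.52.

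Pklr encodes the pyruvate kinase of liver and red cells, the last step to pyruvate and a known target of glucose and insulin (chromosome 3, 89136142 to 89146784, plus strand). Pklr measured 148 CPM in HFD 334, 101 CPM in HFD 335, 105 CPM in I3A 303 and 70.7 CPM in I3A 305. HFD 335 and I3A 303 were close to equal, with HFD 334 above them and I3A 305 below. The estimate was -0.51 ± 0.25 on the log2 scale (SE; 95% interval -1.14 to 0.13; edgeR adjusted p = 0.461; DESeq2 adjusted p = 0.408), with -0.19 without HFD 334, -0.25 without I3A 305, -0.76 without HFD 335 and -0.80 without I3A 303. Exons of Pklr share 711 bases with Hcn3 on the opposite strand, a gene with 5.25% as many counts. Mlxipl, the glucose-responsive factor whose binding element stands in the Pklr window printed above, measured 277 and 149 CPM in HFD and 163 and 102 CPM in I3A livers (log2 fold change -0.68 ± 0.35, SE; edgeR adjusted p = 0.466; -1.06 without HFD 335). In Mlxipl too HFD 334 was highest and I3A 305 lowest, and the groups overlapped. Txnip, another gene known to respond to glucose, measured 178 and 204 CPM in HFD and 224 and 74.9 CPM in I3A livers. None of the 11 tested regulators of glycolysis was called by edgeR, and 0 stood at an unadjusted p under 0.05.

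Pkm, the pyruvate kinase of muscle and most other tissues, measured 10.3 and 33.6 CPM in HFD and 9.01 and 6.80 CPM in I3A livers (log2 fold change -1.48 ± 0.55, SE; edgeR adjusted p = 0.362). Its high value was that of HFD 335, without which the log2 fold change was -0.38. The RPKM ratio of Pklr to Pkm was 22.3 in HFD 334, 4.66 in HFD 335, 18.0 in I3A 303 and 16.1 in I3A 305, so the difference between the groups changed sign without HFD 335 (from 0.74 to -0.39 on the log2 scale). Eno3, the muscle enolase, measured 40.2 CPM in HFD 335 and 3.49 to 4.18 CPM elsewhere, and Aldoa, the aldolase of muscle, 214 CPM against 93.6 to 97.7 CPM. Without HFD 335 their log2 fold changes were -0.028 and 0.046. Without HFD 334, edgeR called Pkm, Eno3, Aldoa, Pfkm, Hk2, Pgam2, Slc2a4 and Pdk4 lower in I3A livers (2.36% of all genes tested in that fit were called), whereas with all 4 libraries 6 of these 8 passed the filter on low counts and 0 were called. Pgam2, Slc2a4 and Hk2 were named after their values were seen; Slc2a4, the insulin-responsive transporter of muscle and fat, had 87 counts in HFD 335 and 0, 1 and 0 in the other libraries. Among the 8 genes of glucose uptake and glycolysis the ratio of HFD 335 to HFD 334 ran from 0.682 (Pklr) to 1.28 (Pfkfb1). The part of muscle RNA in these differences and in the levels of the 8 genes was not tested.

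**Figure D4:**
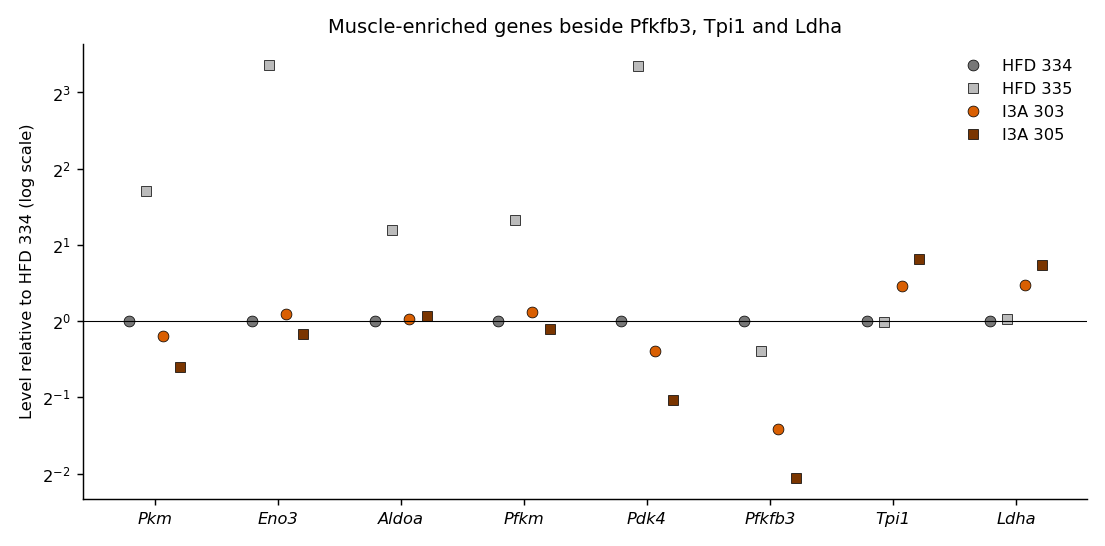
CPM of each gene relative to HFD 334 (log scale, 1 point per library). Pkm, Eno3, Aldoa, Pfkm and Pdk4 stood apart in HFD 335, whereas Tpi1 and Ldha in HFD 335 lay at the level of HFD 334 and Pfkfb3 below it.

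Ldha encodes the lactate dehydrogenase subunit that predominates in liver and muscle and interconverts pyruvate and lactate (chromosome 7, 46841475 to 46855627, plus strand). Ldha had 19766 counts in HFD 334, 21663 in HFD 335, 27862 in I3A 303 and 36998 in I3A 305, or 1286, 1314, 1793 and 2149 CPM. The HFD pair was tight, and both I3A livers lay above it. Its log2 fold change was 0.60 ± 0.14 (SE; 95% interval 0.26 to 0.94; edgeR adjusted p = 0.238; DESeq2 adjusted p = 0.00291), from 0.46 without I3A 305 to 0.74 without I3A 303. The 4 annotated genes that matched its transcript held 0.022% as many counts. Ldhb, the heart subunit, measured 1.11 and 3.76 CPM in HFD and 1.35 and 1.05 CPM in I3A livers. The RPKM ratio of Ldha to Ldhb was 551 and 166 in HFD and 629 and 975 in I3A livers (exact 2-sided permutation p = 0.333; adjusted 0.500), and without HFD 335 its difference on the log2 scale moved from 1.37 to 0.51. Slc16a1, the lactate and pyruvate carrier, was 0.29 ± 0.12 (edgeR adjusted p = 0.403), and of the 6 tested genes of lactate handling 0 were called and 0 stood at an unadjusted p under 0.05.

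Of 13 tested genes of pyruvate entry into mitochondrial oxidation and its control, 0 were called by edgeR. At an unadjusted p under 0.05 stood 3 lower (Pdp2, Pdhb and Pdk4) and 0 higher, beside 6.24% and 6.66% of all tested genes. Pdp2, a phosphatase that activates pyruvate dehydrogenase, was lower at 39.7 and 29.4 CPM in I3A against 61.6 and 58.9 CPM in HFD livers (log2 fold change -0.80 ± 0.16, SE; edgeR adjusted p = 0.214; DESeq2 adjusted p = 0.00601). Pdhb, a subunit of the dehydrogenase, was -0.36 ± 0.11 (edgeR adjusted p = 0.304). Pdk4, the kinase that inactivates it, stood at 86.0 CPM in HFD 335 and at 4.12 to 8.46 CPM in the other 3 libraries, the former being the library with muscle markers; its log2 fold change was -3.17 ± 1.05 (edgeR adjusted p = 0.332) and -0.68 without HFD 335.

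The opposing gluconeogenic enzymes had positive log2 fold changes in 7 of 7 (median 0.29, beside -0.010 and 48.5% positive over all tested genes). Of the 7, 0 were called by edgeR and 3 were higher at an unadjusted p under 0.05, beside 6.66% of all tested genes. The lowest was G6pc3 at 0.0082 ± 0.20 (SE), and Pck2 was negative without HFD 334 (-0.018). Besides Fbp1, those higher were Slc37a4, the glucose 6-phosphate carrier of the endoplasmic reticulum (0.30 ± 0.092, SE; edgeR adjusted p = 0.319), and Pcx, the pyruvate carboxylase (0.29 ± 0.11; edgeR adjusted p = 0.366). G6pc, the catalytic subunit of glucose 6-phosphatase, measured 322 and 328 CPM in HFD and 366 and 355 CPM in I3A livers (log2 fold change 0.15 ± 0.095, SE; edgeR adjusted p = 0.543). Pck1, which starts the path back from oxaloacetate, measured 3442 and 2728 CPM in HFD and 3712 and 3955 CPM in I3A livers, and its RPKM ratio to Pklr was 21.9 and 25.4 in HFD and 33.3 and 52.8 in I3A livers (exact 2-sided permutation p = 0.333; adjusted 0.500). The RPKM ratio of Slc2a2 to Slc2a1 overlapped between the groups, at 23.1 and 15.7 in HFD and 17.7 and 12.8 in I3A livers.

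**Figure D5:**
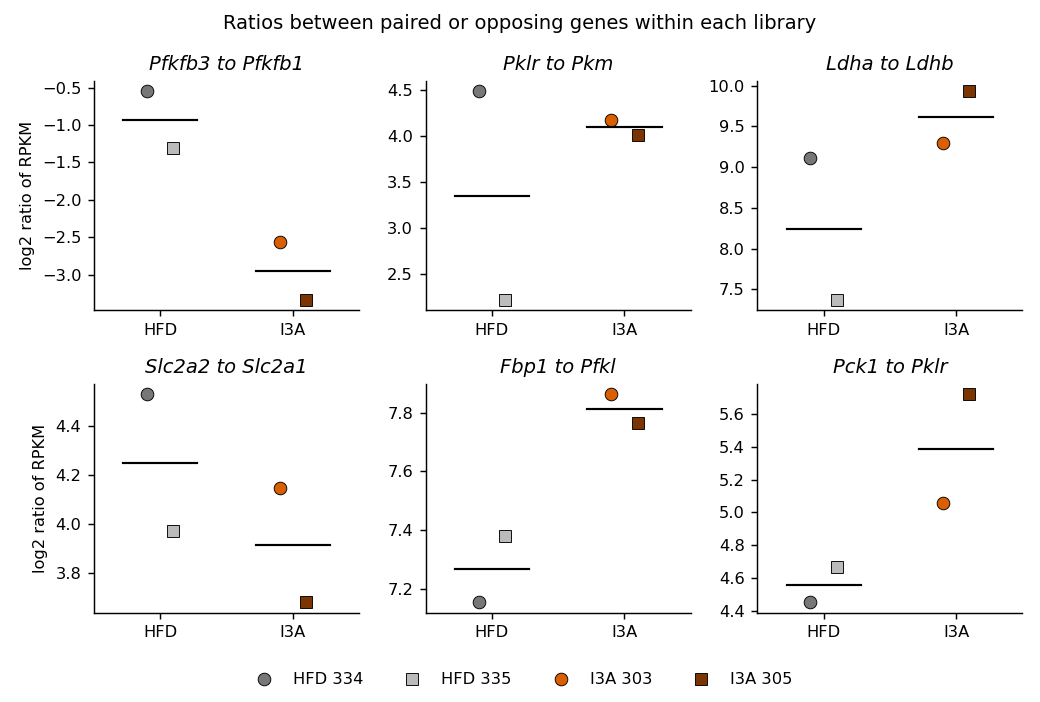
Log2 ratio of RPKM between 2 genes within each library (points) with the group mean (line) for 6 pairs of alternative or opposing genes. For Pfkfb3 to Pfkfb1 and for Fbp1 to Pfkl the gap between the groups was wider than the gap within either group, and Pklr to Pkm overlapped, with HFD 335 lowest.

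Compared per length over all 4 libraries, Ldha had the highest level of the 8 genes (389 to 649 RPKM), followed by Tpi1 (87.8 to 156 RPKM), Slc2a2 (40.8 to 63.0 RPKM), Pklr (21.8 to 45.9 RPKM), Gckr (21.2 to 34.5 RPKM), Pfkfb1 (9.02 to 14.9 RPKM), Pfkfb3 (1.48 to 6.15 RPKM) and Pfkl (3.15 to 4.05 RPKM). The ranges of Slc2a2 and Pklr overlapped, as did those of Pklr and Gckr, although the order held in all 4 libraries. Pfkfb3 was above Pfkl in both HFD livers and below it in both I3A livers. Ldha made up 61.2% and 64.1% of the summed RPKM of the 8 genes in HFD livers and 67.3% and 71.4% in I3A livers. Slc2a2 made up 9.18% and 9.43% against 7.82% and 4.49%. Such a share falls when another gene of the sum rises: in CPM Slc2a2 overlapped between the groups and was highest in I3A 303 (362 CPM). In 7 of the 8 genes, all but Pfkl, I3A 305 lay farther from the HFD mean than I3A 303 did. The same order held between whole libraries by a statistic on raw counts. It grows with depth, and I3A 305 was the deepest library (18255623 counts). The chi-square statistic over its degrees of freedom was 93.1 for I3A 305 against HFD 334 and 88.1 against HFD 335. For I3A 303 it was 46.5 and 44.9. The share of all tested genes in which I3A 305 lay farther was not computed, so whether the order is particular to these genes was not tested.

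Over the 4 libraries, the profile most like that of Pfkfb3 among 5327 other genes averaging 20 CPM or more was that of Abca8a, by the root mean square distance between centred log2 CPM (0.097), followed by Serpina6 (0.135), the corticosteroid-binding globulin, and Hsd3b5 (0.143), a steroid dehydrogenase of male mouse liver. Abca8a measured 105 and 92.7 CPM in HFD and 46.3 and 29.4 CPM in I3A livers. With 4 libraries such likeness is a description only. Of 64 other pathway genes tested and reported here, 0 were called by edgeR, and 9 higher and 8 lower stood at an unadjusted p under 0.05 (26.6%, beside 12.9% of all tested genes). Without I3A 305, 7 of the pathway genes and 3 of the 8 described first stood there, beside 5.44% of all tested genes. Without HFD 335 these were 12 and 6, beside 10.1%, without HFD 334 they were 17 and 3, beside 14.7%, and without I3A 303 they were 16 and 6, beside 11.2%.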

How the data were processed

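Liver RNA was taken up in Trizol and prepared with the NEBNext Ultra RNA kit for Illumina, per the labels' protocols. The authors deposited raw counts per gene, made with HISAT2 and featureCounts 1.5.0-p3 on GRCm38, per the submitters' processing notes. No source used here gives the annotation release, the strand setting or how multiply mapped reads were treated. All 8 genes have the same positions in GENCODE M21 of that build.

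The main test, on counts of 13403 genes kept by filterByExpr (minimum 10 counts), was that of edgeR 4.0.16 under R 4.3.3 (TMM, group as the single term, quasi-likelihood, 2-sided, Benjamini-Hochberg at 0.05). DESeq2 1.42.0, limma-voom (limma 3.58.1), other scalings and filters, and single libraries left out were alternatives. Leaving out a library leaves its group with 1 library, so calls in those fits rest on 1 value for that group. The other pathway genes named are those with an unadjusted edgeR p under 0.05 and a mean of at least 1 CPM, and 6 fixed ones; 2 genes of the lists, and the ratios that need them, are not reported here. Slc2a1 and Ldhb enter ratios; Slc2a3, Slc2a4, Hk2, Pfkfb4, Tigar, Gpi1, Pfkm, Pfkp, Aldoa, Pgk1, Pgam1, Pgam2, Eno1, Slc16a1, G6pc3 and Pck2 lie outside this rule and were named after their values were seen. The 8 genes, the lists and the ratios were chosen with earlier results of these data known. CPM use TMM except marker sums (library totals); RPKM divide CPM by the deposited gene length. The libraries of a group were farther apart than counting noise (chi-square statistic over its degrees of freedom 30.7 and 30.1) and were each counted as 1; labels do not state separate animals, so p-values measure the spread between these libraries, which may be technical. No label gives a batch. The tests were tried on simulated counts of 13403 genes for this comparison, where edgeR found 36.0% of 200 genes set to differ 2-fold (15 false calls), 76.5% at 4-fold (18) and 91.0% at 8-fold (20).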

Additional observations from a re-analysis of the deposited data

How the results depend on the processing

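No paired analysis was possible because the groups share no replicate numbers. The number of genes called by edgeR was 0, and it was 619 without the filter on low counts, 335 with DESeq2, and 0 to 343 with single libraries left out. Of the 8 genes 0 were called, against 3 without the filter and 3 with DESeq2 (Pfkfb3, Tpi1 and Ldha in both) and 0 with any library left out. Of the other pathway genes 0 were called, against 8 without the filter, 3 with DESeq2 and 0 to 8 with single libraries left out; those at an unadjusted p under 0.05 numbered 17, and 7 to 17 with single libraries left out, an alternative added after the data were seen. RLE, upper-quartile and library size scaling, a minimum of 10 counts in every library, limma-voom and an adjusted p under 0.1 left these 3 numbers at 0. Over 88 refits of the 8 genes, 3 changed sign: Slc2a2 without I3A 305 (0.11; range -0.50 to 0.11 with single libraries left out), and Pfkl without HFD 334 (0.057) and without I3A 303 (0.068; range -0.24 to 0.068). The log2 ratio of Pklr to Pkm ranged from -0.39 to 1.87 with single libraries left out, negative without HFD 335, and the other 5 ratios kept their sign. Under TMM 892 genes were higher and 837 lower at an unadjusted p under 0.05, whereas upper-quartile scaling gave 1017 and 759, and library size alone 578 and 1329, and the latter moved the median log2 fold change of all genes from -0.010 to -0.10. Each of the 8 genes had 192 counts or more in every library.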
